A study of Mus musculus with 12 samples.

Results

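The 103 genes described here flank Atg5 on mouse chromosome 10. They are the genes of the count table whose lowest exon start lies between 34.3 and 54.3 Mb of that chromosome on GRCm38, leaving out Atg5 itself and 233 genes with fewer than 10 counts over all 12 libraries, out of 336 genes in this stretch and 53801 in the table. Eosinophils were isolated out of the bone marrow and the blood of 2 genotypes, and their RNA was sequenced in 3 libraries for each of the 4 groups. The Atg5-knockout mice were Atg5flox/flox eoCre Il5tg, and the control mice were eoCre Il5tg without floxed Atg5. Both genotypes therefore carried the Cre recombinase knocked into the eosinophil peroxidase gene Epx, used in the heterozygous state, and the Il5 transgene, which a Cd3d promoter drives in T cells and which raises the number of eosinophils. Ages are not given in the sources used here, and neither is the strain background of the floxed allele nor whether controls were littermates. The labels do not say which libraries came from the same mouse, so the p-values measure the spread between these libraries.

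Atg5 is joined to Atg12 in the complex that attaches the LC3 family of proteins to autophagic membranes. A gene edited in embryonic stem cells is passed on together with the DNA around it, so that neighbouring genes in the edited and the unedited line can differ in sequence as well as in level, whatever the edited gene does. Comparing the neighbours by their distance from the edited gene is therefore a usual check in a conditional knockout. Which stretch of chromosome 10 came with the floxed allele was not tested here.

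Of the 103 genes, 59 were protein coding and 44 were long non-coding RNAs, pseudogenes or other models, and 35 shared exon bases with another gene. Toward the centromere lay 68 of them and away from it 35. Read counts were large enough to be tested in bone marrow for 63 genes and in blood for 62. Both tissues tested 57 of them, and 35 genes, with at most 79 counts over the 12 libraries, were tested in neither. Library totals ran from 18885052 to 30270166 counts. Levels are counts per 1000000 counts (CPM) scaled with TMM factors, means are given ± SD over the n = 3 libraries of a group, and the SE of a log2 fold change is its standard error.

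The cells carried the markers of eosinophils, with none of the 10 eosinophil genes at 0 in any group, but other cells left their transcripts too. The eosinophil genes took 8.04 to 10.2% of the counts in bone marrow libraries and 1.8 to 4.05% in blood libraries. The 8 neutrophil genes took 1.28 to 1.32% of the counts in the Atg5-knockout bone marrow libraries and 0.996 to 1.27% in the controls, and none was at 0. In blood the 6 platelet genes took 0.0286 to 0.0292% in the Atg5-knockout and 0.0386 to 0.0537% in the control libraries, and none was at 0. The share of red cell genes was 14.6% in control blood replicate 1 and between 0.422 and 1.42% in the other blood libraries. In bone marrow it was 0.202 to 0.722% in the Atg5-knockout and 0.138 to 0.248% in the control libraries. Monocyte and macrophage genes took 0.221 to 0.271% in bone marrow and 0.271 to 0.299% in blood. The 5 B cell genes took 0.0848% in Atg5-knockout and 0.0382% in control blood replicate 1, and at most 0.0033% in the other blood libraries. For the 6 T cell genes it was 0.0204 and 0.0102%, and at most 0.00266% in the others. The part of these cells in the results below was not tested, and values without control blood replicate 1 are given for the count of genes at a small p in blood, Tdg-ps2, Tdg and Cep57l1. Fewer cells of a type and less RNA per cell cannot be told apart in these samples.

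The 2 called genes of the region are a pseudogene and a long non-coding RNA, and their sequences decide what a read counted on them can be. Tdg-ps2 (chromosome 10, 42054113 to 42055306, minus strand) is a processed pseudogene, that is a copy of a spliced messenger RNA that was inserted into the genome. Its source is Tdg, which encodes thymine DNA glycosylase, an enzyme that removes thymine or uracil from mispairs with guanine, and which lies on the same chromosome 38.3 Mb from Atg5, outside the region. Over all 1194 bases of Tdg-ps2 the copy and the Tdg transcript (both from GENCODE M39) differed at 9 bases without a gap, an identity of 99.2%. With the base of Tdg first, the position in Tdg-ps2 counted from its 5′ end and the base of Tdg-ps2 last, these were A98C, A855G, G877A, G879C, T993C, T1056C, G1084A, A1090G and G1101A. The copy still opens with ATG and runs to a stop at codon 398 of 398. The stretch from base 1048 to base 1107 of Tdg-ps2 holds 4 of the 9 and is shown with the differing bases in capitals, since reads over it can be assigned to one gene or the other.
Tdg-ps2: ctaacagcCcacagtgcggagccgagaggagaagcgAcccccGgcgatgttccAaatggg
Tdg: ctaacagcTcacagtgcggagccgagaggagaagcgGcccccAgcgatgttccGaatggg

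Most of the copy holds no such mark. Of its 1095 windows of 100 bases, the length of the reads, 671 (61.3%) also stand letter for letter in Tdg transcripts. A read from a shared window matches Tdg-ps2 and another gene equally well. Where the aligner reported each place, it was left out of the counts, which then rest on the remainder of the copy.

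Gm47917 (chromosome 10, 54063811 to 54065069, plus strand) is a long non-coding RNA gene. None of its 926 windows of 100 bases stood in a transcript of another gene. It lies inside Man1a, which runs on the minus strand from 53904785 to 54076609, and shares no exon base with it. Since counting used no strand option, unspliced reads of Man1a over this interval and reads of Gm47917 cannot be told apart. Bases 463 to 562 of its transcript, 1 read length from its middle, show the sequence on which its counts rest.
Gm47917: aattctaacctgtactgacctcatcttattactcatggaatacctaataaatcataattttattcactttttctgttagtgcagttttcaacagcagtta

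In bone marrow eosinophils 2 of the 63 genes tested near Atg5 passed an adjusted p of 0.05, against 0.348% of all 13781 genes tested. Tdg-ps2 was higher, as were 0.145% of all genes tested, and Gm47917 was lower, as were 0.203%, and both also passed the study's fold threshold, an absolute log2 fold change over 2, which 0.0943% of all genes tested passed together with the adjusted p. No other gene of the region passed. These tests are edgeR's quasi-likelihood test with Benjamini-Hochberg adjustment over all genes tested in the tissue.

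Tdg-ps2 had 9.76, 10.1 and 9.70 CPM in the 3 Atg5-knockout bone marrow libraries and 0.935, 0.813 and 1.17 CPM in the 3 control libraries. The groups lay far apart with little spread within either. The means were 9.85 ± 0.204 CPM and 0.973 ± 0.183 CPM, a log2 fold change of 3.33 (SE 0.22, adjusted p = 6.51e-06, edgeR). In blood the libraries had 5.32, 6.06 and 4.97 CPM against 1.82, 0.838 and 1.20 CPM. Again no Atg5-knockout library overlapped with a control library. The log2 fold change in blood was 2.09 (SE 0.40), with an adjusted p of 0.611 from edgeR's test that missed the threshold and was 0.171 with the replicate number as a block. DESeq2 called it in blood, with an adjusted p of 0.00294 on the blood libraries alone. Without control blood replicate 1 its log2 fold change was 2.42. The change was smaller in blood than in bone marrow by 1.28 on the log2 scale (SE 0.42), which did not pass as a difference between tissues (adjusted p = 0.87, edgeR).

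Tdg, the source of the copy, had lower values in the Atg5-knockout libraries. It had 9.09, 9.71 and 10.3 CPM in Atg5-knockout and 21.7, 13.2 and 20.9 CPM in control bone marrow libraries. In blood it had 6.73, 5.36 and 4.26 CPM against 13.1, 11.8 and 11.9 CPM. The Atg5-knockout libraries lay below every control library in both tissues. Its log2 fold changes of -0.94 in bone marrow (SE 0.18, adjusted p = 0.0605, edgeR) and -1.17 in blood (SE 0.27, adjusted p = 1.0, edgeR, and a log2 fold change of -1.12 without control blood replicate 1) did not pass the threshold. In bone marrow Tdg passed with DESeq2 on the bone marrow libraries (adjusted p = 0.000338) and on all 12 libraries (0.0449), and with edgeR in the fit without a filter (2.67e-06) and without control bone marrow replicate 2 (0.00246). In blood it passed with DESeq2 on all 12 libraries alone (adjusted p = 0.00119).

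In bone marrow the sum of Tdg and Tdg-ps2 was 19.5 ± 0.617 CPM in Atg5-knockout and 19.6 ± 4.85 CPM in control libraries (exact permutation test, two-sided, p = 1.0). In blood it was 10.9 ± 1.48 CPM against 13.6 ± 1.22 CPM, with p = 0.1 from the same exact permutation test, the smallest value 3 against 3 libraries allow. The part of this sum counted on Tdg-ps2 was 51.8, 50.9 and 48.5% in the Atg5-knockout bone marrow libraries and 4.12, 5.81 and 5.32% in the controls. In blood it was 44.2, 53.1 and 53.8% against 12.2, 6.62 and 9.15%. About equal numbers of reads were thus counted on the copy and on its source in every Atg5-knockout library, in either tissue. The control libraries had most of them on Tdg. The exact permutation test of this part gave p = 0.1 in each tissue, the smallest value possible. That value follows from the separation of both genes given above and adds nothing to it. Which bases the reads carried was not analysed here.

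**Figure D1:**
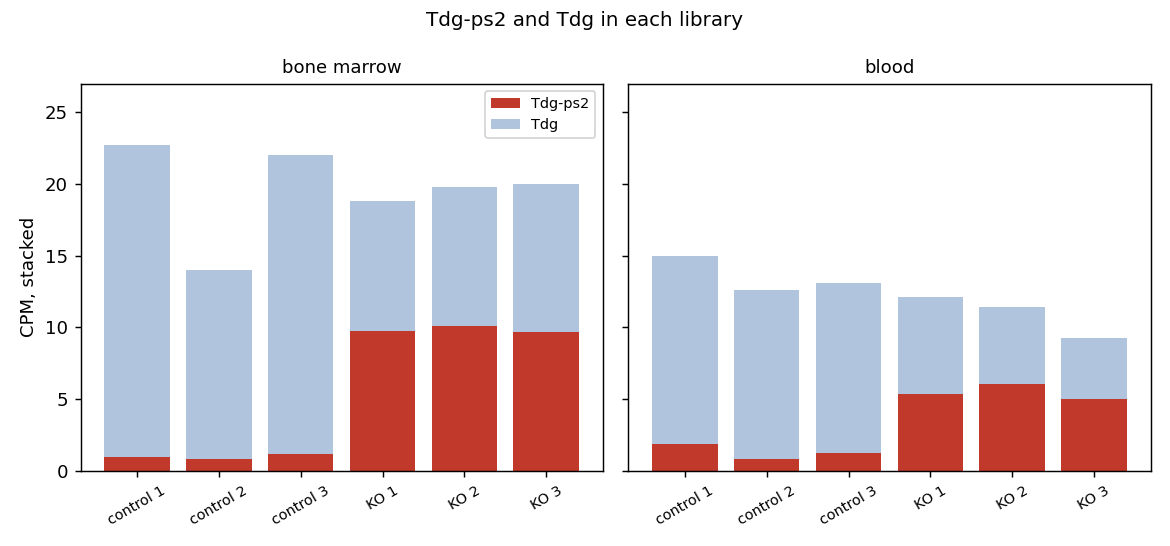
Stacked bars give the CPM of Tdg-ps2 (red) and Tdg (light blue) in each library, with the 3 control and the 3 Atg5-knockout (KO) libraries of bone marrow on the left and of blood on the right. Tdg-ps2 takes 48.5 to 51.8% of the bar in the Atg5-knockout bone marrow libraries and 4.12 to 5.81% in the controls. In blood the whole bars of the Atg5-knockout libraries, at most 12.1 CPM high, are below those of every control library, at least 12.6 CPM.

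Gm47917 was counted 0, 3 and 0 times in the Atg5-knockout and 33, 38 and 66 times in the control bone marrow libraries. In blood it was counted 0, 3 and 0 times against 7, 41 and 38 times. Nearly all of its reads thus came from control libraries, and in both tissues the only reads in Atg5-knockout libraries came from replicate 2. In bone marrow the log2 fold change was -5.38 (SE 0.73, adjusted p = 0.00638, edgeR). Over the group totals the control level was 45.0 times that of the Atg5-knockout group in bone marrow (95% exact interval 15.1 to 221, for counting error only) and 29.1 times in blood (9.62 to 144). Too few counts kept it out of the test in blood, and a fit without the filter on low counts gave a log2 fold change of -4.75 there (adjusted p = 0.0472, edgeR). The call in bone marrow was lost without control bone marrow replicate 3, with a log2 fold change of -5.04 and an adjusted p of 0.0564 (edgeR). Without Atg5-knockout bone marrow replicate 2, which holds its only 3 counts in that group, the log2 fold change was -8.51 (adjusted p = 0.0151, edgeR), and it was -4.85 and -4.90 without the other two Atg5-knockout libraries (adjusted p = 0.0462 and 0.0467, edgeR). Man1a, around it on the other strand, encodes a Golgi mannosidase that trims N-glycans and had 80.7 ± 7.65 CPM against 98.3 ± 11.2 CPM in bone marrow, a log2 fold change of -0.28 (adjusted p = 0.456, edgeR).

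**Figure D2:**
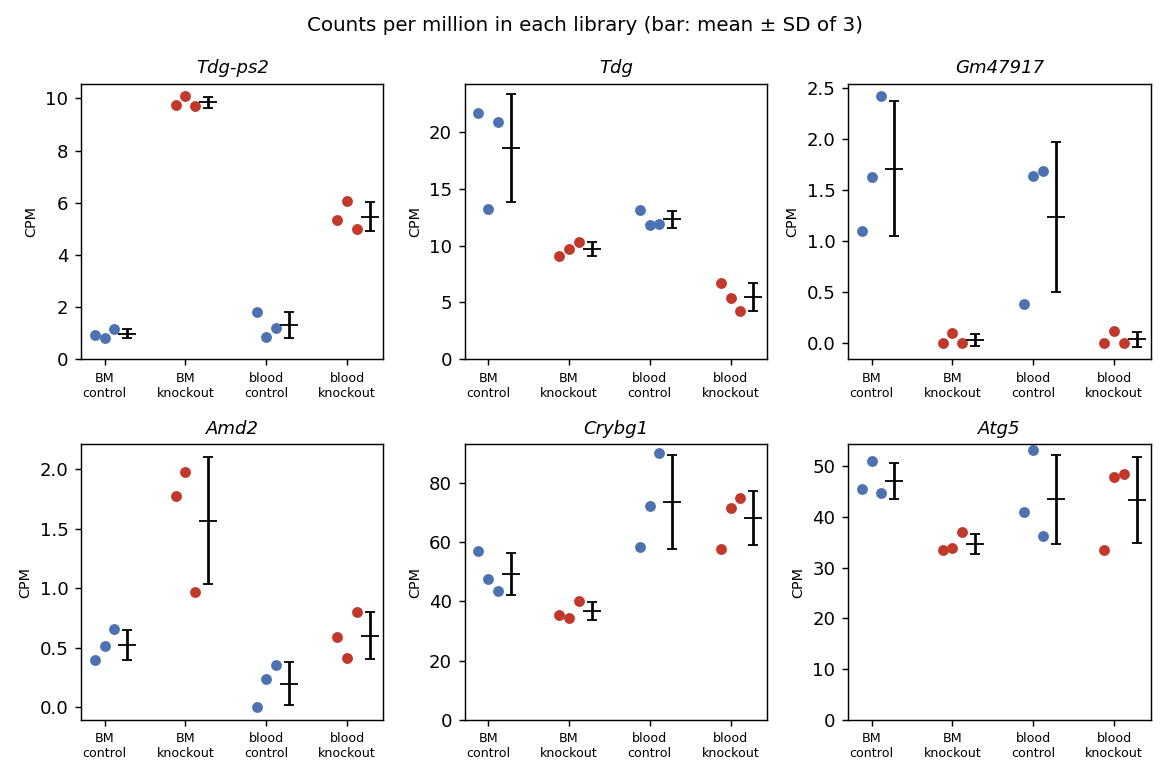
Points give the CPM of 6 genes in each library of bone marrow (BM) and blood, blue for control and red for Atg5-knockout, with the mean ± SD of the 3 libraries beside them. Tdg-ps2 and Gm47917 show groups without overlap in both tissues, in opposite directions, and Atg5 and Crybg1 do so only in bone marrow.

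Another copy of a coding sequence in the region also had higher values in the Atg5-knockout libraries, at a low level, while its relative did not have lower ones as Tdg had. Amd2, 8.56 Mb from Atg5, is close kin to Amd1, 3.97 Mb from Atg5, which encodes the S-adenosylmethionine decarboxylase of polyamine synthesis. The transcripts matched over 3198 aligned bases at 99.7% identity, with 10 differing bases and 2 gaps, and 72.9% of the 100-base windows of Amd2 also stand in Amd1. Amd2 had 1.78, 1.98 and 0.966 CPM in Atg5-knockout and 0.401, 0.513 and 0.659 CPM in control bone marrow libraries, without overlap. Its log2 fold change was 1.59 (SE 0.40, adjusted p = 0.167, edgeR), which passed only in the fit without a filter on low counts (adjusted p = 0.0142). In blood, where it was not tested, it was counted 15, 10 and 17 times against 0, 6 and 8 times. Amd1 itself had 59.5 ± 1.16 CPM against 60.8 ± 3.51 CPM in bone marrow, and Amd2 took 2.57 ± 0.874% of the sum of both against 0.859 ± 0.239%. Reads shared by the 2 genes make the counts of both uncertain.

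A larger share of the genes near Atg5 than of all genes had a small p in bone marrow, and no protein-coding gene of the region was called there. The difference between these shares was not tested. An unadjusted p under 0.05 was reached by 13 of the 63 genes, 20.6% against 9.67% of all genes tested. Of the 63, 4 reached it and were higher (6.35% against 4.36% of all genes), and 9 were lower (14.3% against 5.31%). This count rests on few libraries. It was 6 without Atg5-knockout bone marrow replicate 1 (9.23% against 7.50% of all genes), 8 without Atg5-knockout replicate 2 (12.3% against 4.42%), 6 without control replicate 3 (9.52% against 7.01%) and 22 without control replicate 1 (34.4% against 18.5%). The groups did not overlap for 16 of the 63 genes, 25.4% against 14.2% of all genes tested. The median of the absolute log2 fold change was 0.216 near Atg5 and 0.144 over all genes, and the signed medians were -0.024 and 0.0029. Changes therefore went both ways and were small, with 54 of the 63 genes within 0.5 of 0 on the log2 scale.

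Atg5 had 33.4, 33.8 and 37.1 CPM in the Atg5-knockout and 45.5, 51.1 and 44.8 CPM in the control bone marrow libraries. In blood it had 33.5, 47.9 and 48.5 CPM against 41.0, 53.3 and 36.3 CPM. Only in bone marrow did the groups not overlap, with a log2 fold change of -0.44 (SE 0.11, adjusted p = 0.157, edgeR) against -0.01 in blood. It passed in bone marrow with DESeq2 on the bone marrow libraries (adjusted p = 0.0294) and with edgeR in the fit without a filter (0.0402). These counts sum all exons and do not check the removal of a floxed one.

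Toward the centromere, the 5 nearest genes tested in bone marrow were Crybg1, Rtn4ip1, Qrsl1, 1700027J07Rik and Gm40634. All 5 had log2 fold changes below 0 in both tissues, from -0.48 to -0.02 in bone marrow and from -0.97 to -0.11 in blood, and none passed the adjusted p of edgeR's test. Crybg1, a crystallin-domain protein tied to the actin cytoskeleton that lies 0.12 Mb from Atg5, had 35.6, 34.5 and 40.1 CPM in Atg5-knockout and 57.2, 47.5 and 43.5 CPM in control bone marrow libraries. All Atg5-knockout libraries lay below the controls, at a log2 fold change of -0.43 (SE 0.12, adjusted p = 0.244, edgeR), which passed only in the fit without a filter on low counts (adjusted p = 0.0464). In blood it had 68.2 ± 9.14 CPM against 73.7 ± 15.9 CPM, with overlap. Crybg1 shares 244 exon bases with Rtn4ip1 and 762 with the gene model ENSMUSG00000075162, which had 0 counts, both on the other strand. The counting could not assign reads over these bases.

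Rtn4ip1, a mitochondrial oxidoreductase, had 15.9 ± 0.153 CPM against 16.5 ± 0.477 CPM in bone marrow, and Qrsl1, a subunit of the mitochondrial glutamyl-tRNA amidotransferase, had 13.7 ± 1.05 CPM against 14.7 ± 2.30 CPM. The non-coding genes 1700027J07Rik and Gm40634 had log2 fold changes of -0.02 and -0.48 in bone marrow and -0.97 and -0.21 in blood. None of these 4 passed the adjusted p in either tissue.

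Away from the centromere, the 5 nearest genes tested in bone marrow were Gm35154, Prep, Hace1, Gpx4-ps2 and Ascc3. In bone marrow 4 of these 5 had log2 fold changes above 0, Gpx4-ps2 lay below it, and none passed. Prep, a prolyl endopeptidase 0.703 Mb from Atg5, had a log2 fold change of 0.07 in bone marrow (SE 0.13) and -0.14 in blood (SE 0.18). Hace1, a ubiquitin ligase that acts on Rac1, had 0.12 (SE 0.13) and -0.19 (SE 0.22). Ascc3, a DNA helicase of alkylation repair 6.23 Mb away, had 0.07 and -0.17. Gm35154, a long non-coding RNA, had 0.58 (SE 0.79) and 0.09 (SE 0.69). Gpx4-ps2, a copy of the glutathione peroxidase gene Gpx4 whose 456 windows of 100 bases all stand in transcripts of other genes, had -0.34 in bone marrow (SE 0.14, adjusted p = 0.453, edgeR) and 0.03 in blood.

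Prdm1, which encodes the transcriptional repressor Blimp-1, lay nearest to Atg5, at 0.0729 Mb. It was almost absent from bone marrow eosinophils, where its counts summed to 14 in the Atg5-knockout and to 35 in the control group, and was not tested there. In blood it had 5.48, 4.74 and 5.11 CPM against 6.51, 3.63 and 2.09 CPM, so that the Atg5-knockout libraries lay within the range of the controls.

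By distance, the genes called or at a small p in bone marrow lay across the whole region. Within 1 Mb of Atg5, 3 of 15 genes tested reached an unadjusted p under 0.05, between 1 and 2.5 Mb 3 of 11, between 2.5 and 5 Mb 4 of 17 and beyond 5 Mb 3 of 20. Over all genes tested the share was 9.67%. The share did not fall steadily with distance, and each bin holds few genes. Direction differed between bins. On the centromeric side within 1 Mb, 11 of 13 genes tested had a log2 fold change below 0 in bone marrow, where their median log2 fold change was -0.29, as did 10 of 14 in blood, where it was -0.14. Between 2.5 and 5 Mb the centromeric genes had a median of 0.024 in bone marrow, with 10 of 17 above 0. Over all genes tested, 6809 of 13781 lay below 0 in bone marrow and 6581 of 13460 in blood. Whether the bins differ from all genes was not tested. Tdg-ps2, at 2.21 Mb, and Gm47917, at 9.70 Mb on the other side, stand among neighbours with changes near 0.

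**Figure D3:**
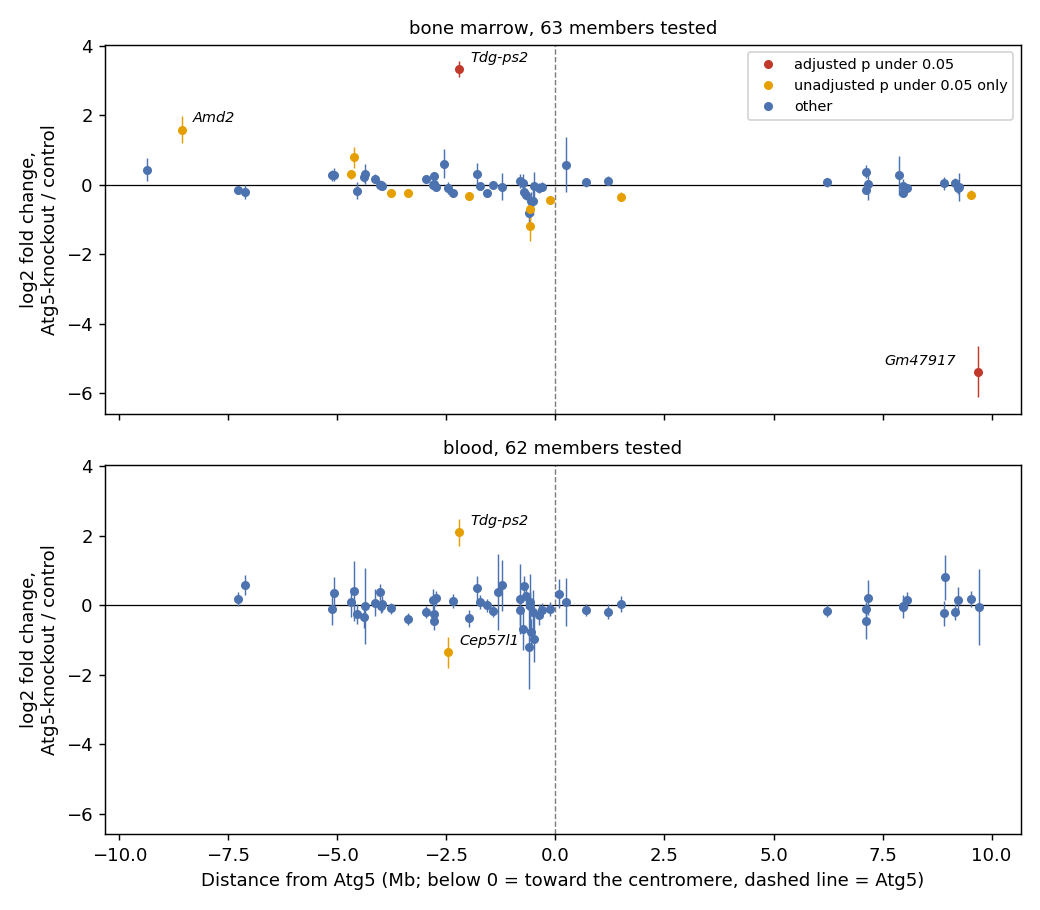
Each point is a gene tested, placed by its distance from Atg5 in Mb (negative values toward the centromere) and by its log2 fold change between Atg5-knockout and control libraries ± standard error, with bone marrow above and blood below. In bone marrow only Tdg-ps2 at 3.33 and Gm47917 at -5.38 pass an adjusted p under 0.05 (red), and most other genes lie near 0 at every distance.

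Chromosome 10 beyond the region held called genes as well. Of the 48 genes called in bone marrow, 0.348% of all genes tested, 9 lay on chromosome 10. Of these, 7 were outside the region, where 608 genes were tested. Adgrg6 and C920009B18Rik, 29.7 and 21.9 Mb toward the centromere, had log2 fold changes of -0.79 and -1.38. Elk3, Lta4h, Hal, Fgd6 and Ndufa12 lay together between 48.9 and 49.8 Mb on the other side of Atg5, with values from -1.62 for Fgd6 to 1.12 for Hal, which encodes histidine ammonia lyase. Of the 96 genes tested between the edge of the region and 20 Mb from Atg5, none was called and 8.33% reached an unadjusted p under 0.05. Beyond 20 Mb, 7 of 512 were called and 13.3% reached it. On other chromosomes 9.48% of 13109 genes did, and 18 were called higher and 21 lower. Whether the counts called differ between chromosomes was not tested.

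**Figure D4:**
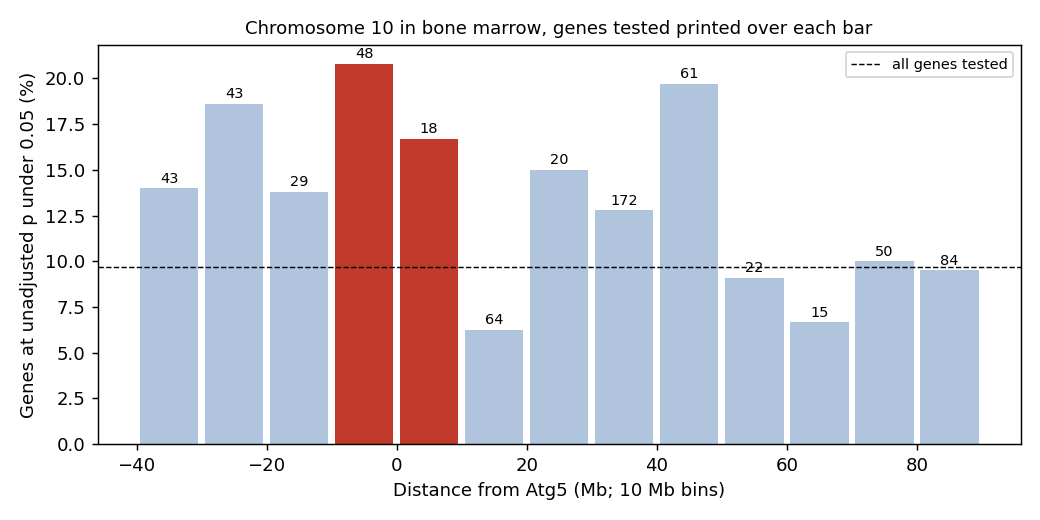
Bars give the share of genes at an unadjusted p under 0.05 in bone marrow by distance from Atg5 on chromosome 10, in bins of 10 Mb with at least 10 genes tested, with the number tested over each bar. The 2 bins next to Atg5 (red) are at 20.8 and 16.7%, the bin from 40 to 50 Mb is at 19.7%, and the dashed line is 9.67%, the share over all genes.

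In blood eosinophils none of the 62 genes tested passed an adjusted p of 0.05, against 0.0371% of all 13460 genes tested, all by edgeR's test. An unadjusted p under 0.05 was reached by 2 genes, Tdg-ps2 and Cep57l1, 3.23% against 2.58% of all genes. It was reached by 5 genes without control blood replicate 1 (7.58% against 5.49%), by 5 without Atg5-knockout replicate 1 (7.46% against 3.52%) and by 7 without Atg5-knockout replicate 2 (10.3% against 1.51%), and by 3 without any other library. With the replicate number as a block, which blood libraries of like number shared in their deviations, it was reached by 9 genes, 14.5% against 7.59%, and none passed the adjusted p. Of the region, DESeq2 on the blood libraries called Tdg-ps2 alone, among 22 of all genes. On all 12 libraries it also called Gm47917 and Cep57l1, among 77 of all genes. Groups did not overlap for 7 genes, 11.3% against 7.48%. The scatter between libraries was wider in blood, with a biological coefficient of variation of 0.365 against 0.146 in bone marrow. On simulated counts the test recovered 54.7% of log2 changes of 2 in blood, against 94.8% in bone marrow.

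Cep57l1, a centrosomal protein gene 2.46 Mb from Atg5, had 0.940, 0.865 and 0.946 CPM in the Atg5-knockout and 2.76, 2.55 and 1.78 CPM in the control blood libraries. No libraries of the 2 groups overlapped. The log2 fold change was -1.36 (SE 0.44, adjusted p = 1.0, edgeR), and -1.24 without control blood replicate 1. In bone marrow the gene had 9.62 ± 1.78 CPM against 10.3 ± 0.831 CPM, and the difference between tissues of -1.31 (SE 0.36) did not pass (adjusted p = 0.852, edgeR).

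The difference between tissues was tested for 68 genes of the region and passed for none, as for none of all 14712 genes tested (0%) by edgeR's interaction test. An unadjusted p under 0.05 was reached by 5 of the 68 genes, 7.35% against 5.03% of all genes. DESeq2 on all 12 libraries called 15 of all 14647 genes tested, none of them in the region.

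Of the 57 genes tested in both tissues, 28 (49.1%) had the same sign in bone marrow and blood, where 45.5% of all 12704 genes tested in both did. Across these genes Pearson's r of the log2 fold changes was 0.57, and 0.18 over the 56 genes without Tdg-ps2, as a description of genes that share libraries. Tdg-ps2 and Cdc40 had groups without overlap on the same side in both tissues, 3.51% of the 57 genes, as did 89 of the 12704 genes tested in both (0.701%). No other gene of these 57 did. Amd2 and Gm47917, too low to be tested in blood, also had groups without overlap on the same side in both tissues. Cdc40, a splicing factor 3.39 Mb from Atg5, had 42.3, 48.9 and 50.6 CPM against 58.6, 58.3 and 51.5 CPM in bone marrow, and 28.3, 33.7 and 35.1 CPM against 45.9, 39.2 and 43.0 CPM in blood. The Atg5-knockout libraries lay lower in both, at log2 fold changes of -0.25 (SE 0.11, adjusted p = 0.51, edgeR) and -0.40 (SE 0.18, adjusted p = 1.0, edgeR).

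**Figure D5:**
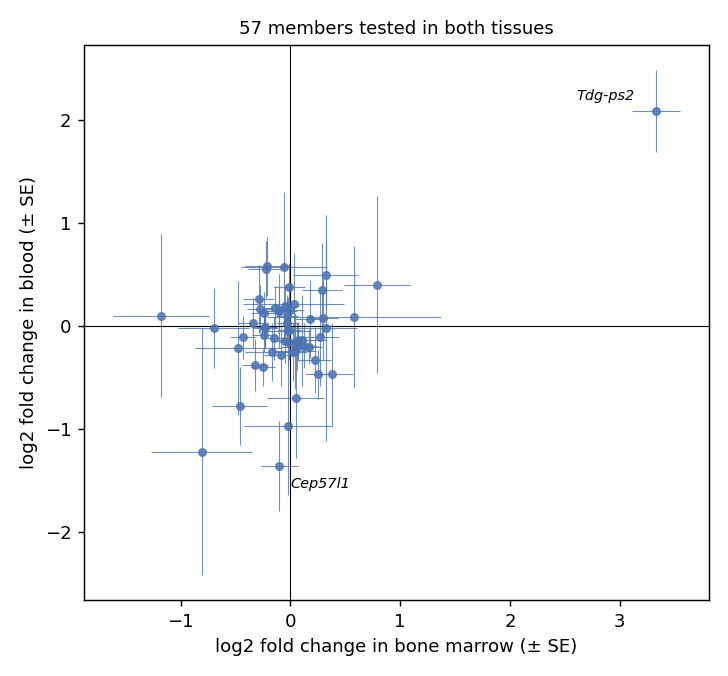
Each point is 1 of the 57 genes tested in both tissues, with its log2 fold change in bone marrow on the horizontal and in blood on the vertical axis, and bars for the standard errors. Tdg-ps2 stands alone at 3.33 and 2.09, Cep57l1 lies at -1.36 in blood near 0 in bone marrow, and the other genes form a cloud around 0 without a common direction.

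By role, no gene of the 8 lists passed an adjusted p in either tissue by edgeR's test. The 7 genes of vesicle traffic and the lysosome had a median log2 fold change of -0.048 in bone marrow and -0.017 in blood, beside 0.0029 and 0.0062 over all genes. The list also holds Rtn4ip1, the mitochondrial oxidoreductase named above, at -0.05 and -0.15. Its members include Snx3, a sorting nexin of the retromer, with 164 against 168 CPM in bone marrow as group means, and Ostm1, a partner of a lysosomal chloride transporter, with 78.7, 76.5 and 83.9 CPM against 80.9, 102 and 96.8 CPM, where 1 control library lay within the range of the Atg5-knockout libraries.

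The 7 genes of signalling and surface receptors had medians of -0.15 in bone marrow and 0.084 in blood, and 3 of them (42.9%) reached an unadjusted p under 0.05 in bone marrow, against 9.67% of all genes tested. Traf3ip2, the adaptor Act1 of the interleukin-17 receptor, had 2.23, 1.98 and 1.85 CPM against 1.07, 1.5 and 0.952 CPM, a log2 fold change of 0.79 (SE 0.30, adjusted p = 0.425, edgeR). It shares 1293 exon bases with the antisense gene E130307A14Rik, which the counting did not separate and which had a log2 fold change of -0.17. Fyn, a Src family kinase, and Cdk19, a kinase of the Mediator complex, had 0.30 and -0.24 in bone marrow and 0.08 and -0.09 in blood.

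Cd24a, a glycolipid-anchored surface glycoprotein in the same list, had the highest level per length of the region. It had 1280 RPKM in Atg5-knockout and 1570 RPKM in control bone marrow libraries, and 2870 against 2400 RPKM in blood. In bone marrow the libraries had 3230, 2970 and 3750 CPM against 3260, 4670 and 4220 CPM, and in blood 4890, 7200 and 10100 CPM against 4160, 6770 and 7650 CPM. The groups overlapped in both tissues, with log2 fold changes of -0.29 (SE 0.14, adjusted p = 0.546, edgeR) and 0.26 (SE 0.33, adjusted p = 1.0, edgeR).

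Of transcription and chromatin, 6 genes were tested in bone marrow and 8 in blood, with medians of -0.052 and 0.15. Foxo3, a forkhead factor that is active when insulin signalling is low and drives autophagy genes among others, lies 1.99 Mb from Atg5. It had 105, 110 and 138 CPM in Atg5-knockout and 144, 148 and 149 CPM in control bone marrow libraries, with all Atg5-knockout libraries lower, and 216, 161 and 254 CPM against 307, 199 and 317 CPM in blood, with overlap. The log2 fold changes were -0.32 (SE 0.12, adjusted p = 0.39, edgeR) and -0.38 (SE 0.25, adjusted p = 1.0, edgeR). Foxo3 is also in the list of stress sensing and cell growth, whose 3 tested genes had medians of -0.24 and -0.19.

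The medians of the remaining lists lay within 0.24 of 0. The 6 tested genes of DNA repair, replication and RNA processing, which include Cdc40 and also the ubiquitin ligase Hace1, had medians of 0.069 in bone marrow and -0.20 in blood. The 6 of mitochondria and small-molecule metabolism had 0.094 and -0.054, with the aromatic amino acid transporter Slc16a10 at 0.18 (SE 0.14) and 0.07 (SE 0.38). The 3 of glycans and lipids had -0.099 and 0.15, and the 5 of cytoskeleton and adhesion, which include Crybg1 and Cep57l1, had 0.035 and -0.24, with all 5 below 0 in blood.

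Among the genes too low to be tested, Fam229b in bone marrow, with 6, 7 and 8 counts against 2, 4 and 5, was the remaining one with at least 30 counts and groups without overlap, beside Amd2 and Gm47917 in blood. A fit without the filter gave it a log2 fold change of 0.89 (SE 0.862, adjusted p = 0.773, edgeR).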

How the data were processed

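Eosinophil RNA was sequenced by the authors as stranded mRNA libraries, in single-end reads of 100 bases on one lane, aligned with HISAT2 2.2.1 and counted per gene with featureCounts. The deposited values are raw read counts without normalization. Per the file headers, featureCounts 2.0.1 used Ensembl release 92 on GRCm38, with no option for strand or for reads with several places, while the study's methods name an annotation on GRCm39. Coordinates are those of the table, and distance runs from Atg5 (44268358 to 44364291) to the nearest end of the gene. The deposited gene length, in bases, gave RPKM (CPM per kilobase of exon) only for comparing levels between genes. Symbols, matched for 100 of the 103 genes, and transcript sequences came from GENCODE M39, without coordinates, and then RefSeq.

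Each tissue was fitted from its 6 libraries with edgeR 4.0.16 (R 4.3.3): TMM factors, its filter on low counts, the quasi-likelihood test and Benjamini-Hochberg adjustment over all genes tested. The difference between tissues was an interaction over 12 libraries. Standard errors are the absolute log2 fold change over the square root of F. Sums of 2 genes were compared by an exact permutation test over libraries. The test was checked on simulated counts. In bone marrow it recovered 73.7% of changes of 1 and 94.8% of changes of 2 on the log2 scale, with 17 false calls. In blood it recovered 11.3 and 54.7%, with 6 false calls. For the difference between tissues it recovered 12.4 and 60%, with 5 false calls. Alternatives used DESeq2 1.42.0, limma 3.58.1, other scalings and filters, a replicate block and each library left out. Replicates differed by more than sampling noise (chi-square per degree of freedom 16.9 to 363).

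Named genes were Atg5, the called genes, the 5 genes tested nearest to it on each side, in each list of roles the gene of lowest p in bone marrow, and genes too low to test with at least 30 counts and groups apart. Tdg, Amd1, Amd2 in bone marrow, Prdm1, Cep57l1, Cd24a, Fyn, Cdk19, Snx3, E130307A14Rik and the genes outside the region were chosen after their values were seen. The members and lists were chosen with earlier results of these data known. Deviations of same-numbered Atg5-knockout and control libraries had correlations of 0.568, 0.262 and 0.35 in blood and of -0.181, -0.128 and 0.0006 in bone marrow. No source says what the numbers share. The reported values of both tissues, blood included, come from fits without a replicate block, and the block was an alternative. With it, all genes called in blood went from 5 to 10. Promoters of Tdg-ps2 and Gm47917 were not analysed here.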

Additional observations from a re-analysis of the deposited data

How the results depend on the processing

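In bone marrow, 2 genes of the region, Tdg-ps2 and Gm47917, were called, and in 14 of 18 alternatives both were called, with at most 1 more gene. The exceptions were 1 gene (Tdg-ps2) with edgeR on all 12 libraries, where Gm47917 had a log2 fold change of -5.34, 5 genes without a filter on low counts (with Amd2, Crybg1 and Gm47926), and 1 gene among those within 5 Mb of Atg5, a stretch that does not hold Gm47917. Leaving out a replicate gave 1 to 3 genes, with 1 without control bone marrow replicate 3. All genes called were 48 in the reported fit, 12 with edgeR on all 12 libraries and 420 without a filter. They were 18 without control bone marrow replicate 3 and 219 without control bone marrow replicate 1, the fit with 3 genes of the region. In blood, where none was called, DESeq2 called 1 gene on the blood libraries (Tdg-ps2) and 3 on all 12 libraries, edgeR on all 12 libraries called 1 and the fit without a filter 2. Leaving out a replicate gave 0. Over all genes the reported blood fit called 5, against 22 with DESeq2 on the blood libraries and 77 with DESeq2 on all 12 libraries. It was 16 with edgeR on all 12 libraries and 77 without a filter. No alternative called a gene of the region in the difference between tissues. Over all genes, DESeq2 on all 12 libraries called 15 there and the fit without a filter 119. The cause of these shifts was not tested, beyond the libraries and genes that enter each fit.

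The median log2 fold change in bone marrow was -0.0244, with -0.0923 to 0.00467 over the alternatives. With a replicate left out it ran from -0.0923 (without control bone marrow replicate 1) to -0.0156. In blood the median of -0.0188 was -0.0671 with limma-voom, 0.0646 with library size alone, where the median of all genes moved to 0.0974, -0.0623 without a filter, -0.0513 with the replicate block and 0.0842 over genes that share no exon bases. With a replicate left out it ran from -0.106 (without Atg5-knockout replicate 2) to -0.039.

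The replicate block changed no call on a gene of the region in blood, and in bone marrow, where libraries share only a number, it left 2 genes called and took all called genes from 48 to 23. Of 1042 values of the named genes under alternatives, 14 passed the threshold where the reported value did not and 2, both of Gm47917 in bone marrow, no longer passed. A change of sign occurred in 44, all in comparisons where the gene was not called and 39 of them with a library left out. Of these, 5 moved by more than 1 SE from the reported value. In blood Traf3ip2 went from 0.4 to -1.08 without Atg5-knockout replicate 1, and Man1a from 0.17 to -0.09 without Atg5-knockout replicate 3. In the tissue difference Gm47917 went from 0.57 to -2.80 without Atg5-knockout blood replicate 2. Gm40634 went there from 0.21 to -0.59 without Atg5-knockout blood replicate 3, and Slc16a10 from -0.16 to 0.28 without control blood replicate 1. Over the libraries left out, these 5 ran from -1.08 to 1.07, -0.09 to 0.29, -2.80 to 3.49, -0.59 to 0.53 and -0.47 to 0.28, in this order. The blood libraries scatter more, with a biological coefficient of variation of 0.365 against 0.146, which widens the standard errors there.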
